A study of Homo sapiens with 19 samples.

Results

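The genes described are 28 genes of cholesterol synthesis and its control, fixed by name. They comprise 18 enzymes from HMGCS1 to DHCR7, 3 enzymes of neighbouring branches, the regulators INSIG1, INSIG2, SCAP, SREBF1 and SREBF2, and the sterol transport proteins STARD4 and NPC1. The 18 enzymes do not cover every step of the pathway. Each was represented by its brightest probe, and all 28 were found among the 20503 gene symbols matched to a probe. All 28 were well above background on all 19 arrays, so no filter on low values removed any of them. They were measured in KhES-3 cells, an established line of human embryonic stem cells (hESCs), at 19 time points from 3 to 72 h after the induction of brown adipocyte (BA) differentiation. The time points were 3, 4, 6, 8, 10 and 12 h, then 14, 16 and 20 h, then every 4 h from 24 to 36 h, and every 6 h from 42 to 72 h. Each was 1 group with 1 one-colour array of Cy3-labelled total RNA, so there were no replicates and the spread between cultures is unknown. Neither uninduced cells nor a parallel culture without the inducing medium was analysed here. Every group shared the same serum-free medium in low-attachment dishes: IMDM and Ham's F12 with bovine serum albumin, synthetic lipids, monothioglycerol, insulin-transferrin-selenium, Glutamax II, protein-free hybridoma mix, ascorbic acid-2-phosphate and the cytokines IGF-II, BMP4, VEGFA, KITLG, FLT3LG and IL-6. The medium therefore contained lipids and a lipid-carrying protein at all time points. The labels describe ES cells maintained on irradiated mouse embryonic fibroblasts before induction, whereas the study's methods describe culture without feeder cells, and which applied to these samples is not settled. All cells came from 1 line.

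Cholesterol is built from acetyl units. The mevalonate pathway makes isoprenoid building blocks, squalene is then formed and closed into lanosterol, and a series of demethylations, reductions and isomerisations turns lanosterol into cholesterol. The pathway is known for its feedback: when membranes of the endoplasmic reticulum are poor in sterol, SCAP carries the SREBP precursors to the Golgi, where proteases release a transcription factor that binds sterol regulatory elements in the promoters of the enzymes, usually beside NF-Y and SP1, and when sterol is plentiful the INSIG proteins hold SCAP back. SREBP-2, encoded by SREBF2, acts mainly on cholesterol synthesis and SREBP-1, encoded by SREBF1, mainly on fatty acid synthesis. Transcript levels of the enzymes are commonly read as an account of SREBP activity, which was not measured here.

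The promoters are shown because the feedback on the enzymes is known to act through them. The sequences are from RefSeq (GRCh38.p14), on the strand of the gene, and cover the 250 bases before the annotated transcription start (for HMGCS1, 1 of its 2 starts). Windows for 25 of the 28 members were matched, those of FDFT1, SQLE and ACAT2 not. Capitals mark the sterol regulatory element TCACNCCAC and the NF-Y motif CCAAT, either as written or as its reverse complement ATTGG. The sequence of SREBF2 is shown for its sterol element, those of INSIG1, MSMO1 and HMGCS1 for 3 of the highest ratios at 60 h, and that of LBR as an enzyme promoter without any of the motifs searched.
SREBF2, chr22:41832855-41833104, plus strand: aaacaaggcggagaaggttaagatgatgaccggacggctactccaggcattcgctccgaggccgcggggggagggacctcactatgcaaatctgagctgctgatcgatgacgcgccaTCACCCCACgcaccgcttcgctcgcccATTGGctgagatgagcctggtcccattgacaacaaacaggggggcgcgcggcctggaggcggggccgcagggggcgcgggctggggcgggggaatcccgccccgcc
INSIG1, chr7:155297628-155297877, plus strand: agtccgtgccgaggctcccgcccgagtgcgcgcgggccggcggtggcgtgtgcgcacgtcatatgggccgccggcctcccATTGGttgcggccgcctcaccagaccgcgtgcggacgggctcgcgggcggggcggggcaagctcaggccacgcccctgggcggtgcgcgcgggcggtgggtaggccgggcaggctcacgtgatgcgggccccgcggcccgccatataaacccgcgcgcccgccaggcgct
MSMO1, chr4:165327419-165327668, plus strand: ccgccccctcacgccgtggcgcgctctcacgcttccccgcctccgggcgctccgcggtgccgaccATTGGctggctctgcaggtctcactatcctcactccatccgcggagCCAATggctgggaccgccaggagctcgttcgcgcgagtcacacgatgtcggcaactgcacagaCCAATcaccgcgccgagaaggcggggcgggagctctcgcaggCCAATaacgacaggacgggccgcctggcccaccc
HMGCS1, chr5:43313413-43313662, minus strand: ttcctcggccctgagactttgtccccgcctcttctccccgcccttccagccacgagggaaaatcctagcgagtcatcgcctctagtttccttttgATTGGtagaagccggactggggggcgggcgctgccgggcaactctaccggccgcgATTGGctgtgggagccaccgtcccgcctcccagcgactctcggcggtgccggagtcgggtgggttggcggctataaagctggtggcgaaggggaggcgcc
LBR, chr1:225428822-225429071, minus strand: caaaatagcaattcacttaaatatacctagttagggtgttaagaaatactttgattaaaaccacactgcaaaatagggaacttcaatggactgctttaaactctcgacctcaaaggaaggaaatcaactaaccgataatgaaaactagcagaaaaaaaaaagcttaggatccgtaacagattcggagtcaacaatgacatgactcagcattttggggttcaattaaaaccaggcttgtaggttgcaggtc

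Over the whole windows of 300 bases, which run 50 bases past the start, and with both strands searched, TCACNCCAC was found in 1 of the 25 member genes, against 1.39% of the 27305 genes with a window. The match lay in SREBF2, 133 bases before the start. CCAAT was found in 17 of the 25 (68% against 39.7% of all genes) and GGGCGG, the core motif of SP1, in 23 of the 25 (92% against 48.3%). Unlike the members, all genes with a window include genes not well above background on these arrays. Shares among detected genes were not taken, so the excess cannot be read as particular to the members. None of these motifs is contained in another, and a gene with several windows counted once. SREBF2, the only member with the strict sterol element in its window, had a signal that ranged 1.45-fold over the 19 arrays. The promoters of INSIG1, MSMO1 and HMGCS1 held CCAAT but not these exact letters of the sterol element in the windows.

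Signals are processed intensities scaled so that every array has a 75th percentile of 689.5, and they compare arrays for 1 gene, not genes with each other. The arrays lay on 3 slides, the first with 6 arrays (3 to 12 h), the second with 8 (14 to 42 h) and the third with 5 (48 to 72 h), so that slide and time overlap. The unscaled 75th percentile lay between 526 and 800, with its lowest values at 66 h (526) and 72 h (535), and 49.6% to 64.7% of spots were well above background. The hESC markers POU5F1, SOX2, NANOG, LIN28A and DPPA4 were well above background on all 19 arrays and no probe was matched to the remaining marker, TDGF1. Of the 7 fibroblast markers, COL1A1 and COL1A2 were well above background on all arrays, PDGFRB on 17, DCN on 9, POSTN on 2 and COL3A1 and LUM on 1 each. The summed signal of the 5 stem cell markers was 456604 to 465179 at 3, 4 and 6 h and 363363 to 383505 at 60, 66 and 72 h. That of the 7 fibroblast markers was 13160 to 13535 and 12967 to 13679 in the same windows, and that of 6 mesoderm and endoderm markers 1619 to 1746 and 980 to 2315, with 4 of the 6 well above background on all arrays. Each sum follows mainly its brightest genes, such as POU5F1 (358822 at 3 h and 270212 at 72 h) and COL1A1 (8072 and 7442). By the slope on hours described below, POU5F1 and LIN28A fell, and SOX2, NANOG and DPPA4 were not called. COL1A1 and PDGFRB fell, COL1A2 rose, and DCN was not called. FOXA2 fell, and the other mesoderm and endoderm markers were not called. The part of these shifts in the results was not tested, and in RNA from whole cultures fewer cells of a type and less RNA per cell cannot be told apart.

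Most enzymes of cholesterol synthesis fell over the 72 h. The slope of log2 signal on hours (limma, 19 arrays, Benjamini-Hochberg adjusted p under 0.05 over 32113 probes) was called falling for 17 of the 28 members, where 24.7% of all probes tested fell, and rising for 3 (SC5D, GGPS1, NPC1), where 27.4% rose. With the slide as a block, 10 of the falls and 0 of the rises were called. Among the 13969 genes that were, like the members, well above background on every array, 36.5% fell and 19.6% rose. Of the 18 enzymes from HMGCS1 to DHCR7, 13 fell, 1 (SC5D) rose and 4 (PMVK, MVD, TM7SF2, MSMO1) were not called. The median change between the mean of 3, 4 and 6 h and that of 60, 66 and 72 h was -0.65 on the log2 scale over the 28 members, with a range from -1.55 (ACAT2) to 1.42 (SC5D), against 0.07 over all probes tested. Unlike the members, the probes tested include many not well above background on every array. A median over the 13969 genes alone was not taken, so the size of the contrast with genes like the members is not known. The members' median was -0.99 with scaling to the array median, -1.23 with scaling to spike-in RNA, -0.33 after normexp correction with quantile normalization and -0.42 with the mean of a gene's detected probes. In time, 13 members were highest by 12 h and 6 between 14 and 20 h, and 12 were lowest at 72 h.

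**Figure D1:**
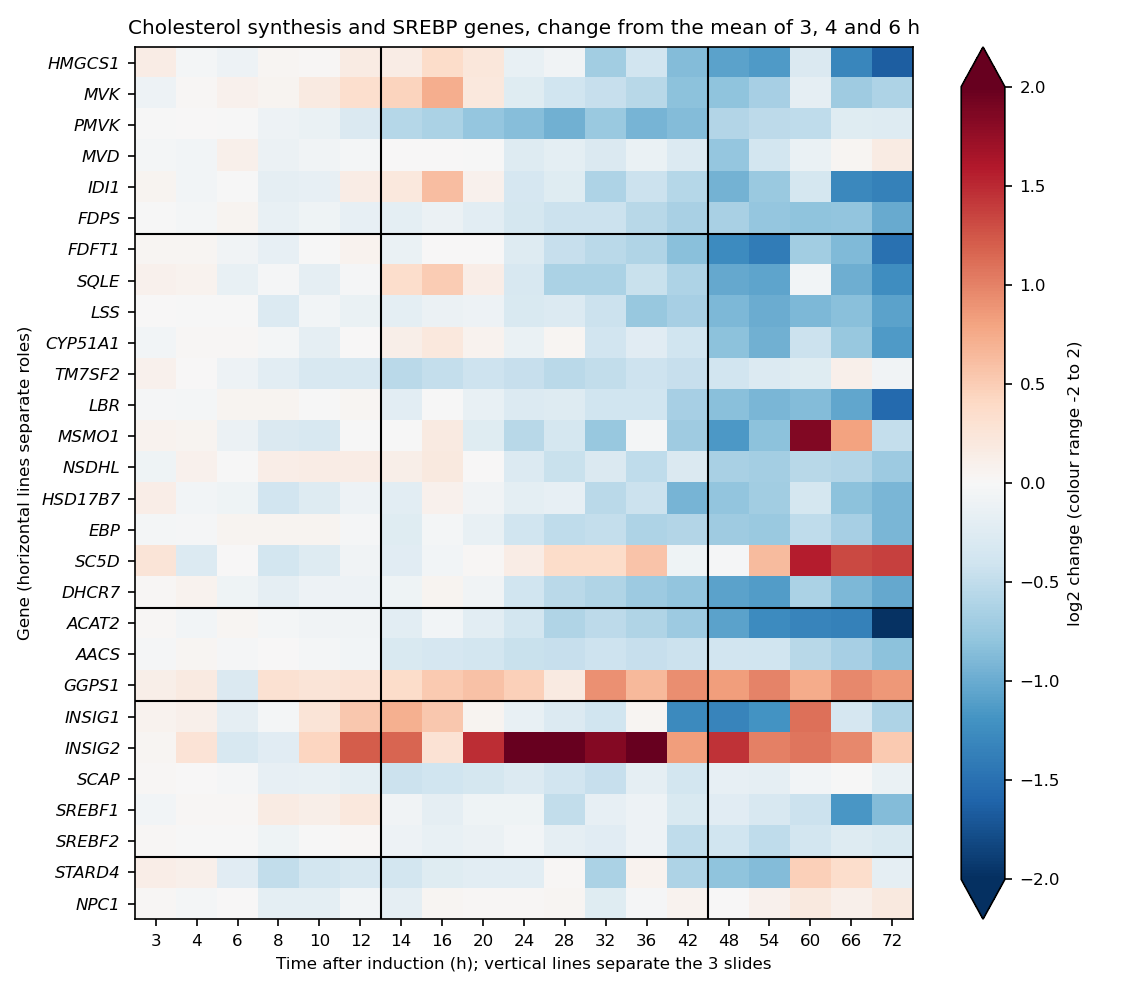
Log2 change of each of the 28 genes (rows, by role) on each of the 19 arrays (columns, time in h) from the mean of 3, 4 and 6 h; blue is lower and red higher. Most enzymes turned blue from about 24 h, and GGPS1 and INSIG2 were red for much of the course. SC5D was red from 24 to 36 h and from 54 h on. The 60 h column was redder than its neighbours for MSMO1 and INSIG1.

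The trend depended on the arrays after 54 h for some members. In the fit to the 16 arrays from 3 to 54 h, 22 of the 28 members fell (23.2% of all probes) and 3 rose (25.6%), the latter being SC5D, GGPS1 and INSIG2. PMVK, MVD, MSMO1, INSIG1 and STARD4, none of which was called over 72 h, were called falling to 54 h, with limma adjusted p of 0.00779, 0.00177, 0.00102, 0.00062 and 0.0216. A cubic polynomial in hours was called for 24 of the 28 members, a share not far above the 75.9% of all probes called, and the members not called were MSMO1, INSIG1, STARD4 and NPC1.

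In the mevalonate pathway, 4 of the 6 member enzymes fell. HMGCS1, the synthase that joins acetyl and acetoacetyl units into HMG-CoA, ranged from 1007 at 72 h to 4086 at 16 h, with a median of 2945 over the 19 arrays (probe A_24_P63522). In that order, at 16, 42, 54, 60 and 66 h its signal was 4086, 1739, 1437, 2582 and 1282. The signals of the first slide lay above those of the third on every array, and HMGCS1 changed by -1.08 log2 between the windows (slope -0.0232 ± 0.0031 log2 per h, adjusted p = 6.3e-06). MVK, the kinase of the first phosphorylation of mevalonate, went from 4475 at 3 h to 7955 at 16 h and was at 2731 at 42 h, with a change between the windows of -0.50 log2 (adjusted p = 0.00085). IDI1, which interconverts the isoprenoid building blocks, had the same course of a maximum followed by a decline, highest at 4905 at 16 h and lowest at 1250.5 at 72 h (-0.998 log2, adjusted p = 2.4e-05).

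FDPS, which builds farnesyl diphosphate, declined more evenly. It ranged from 11854 at 72 h to 24672 at 6 h, with a median of 18600.3 over the 19 arrays, and the scatter of its arrays around the line was the smallest among the members (0.059 log2, against a median of 0.203). Its change was -0.87 log2 (slope -0.0142 ± 0.001 log2 per h, adjusted p = 4.3e-09). The remaining pair had no called slope over 72 h. PMVK, which adds the second phosphate, was at 4551 on the first array, at its lowest (2339) at 28 h and at 3827 on the last array, so that both ends of the course were higher than its middle (cubic adjusted p = 4.5e-07). MVD, the decarboxylase that ends the mevalonate steps, moved between 958 (48 h) and 1826 (72 h), with a change between the windows of 0.02 log2.

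Of the 12 member enzymes from squalene formation to cholesterol, 9 fell and 1 rose. FDFT1, the squalene synthase, ranged from 5848 at 72 h to 17192 at 12 h, with a median of 13655 over the 19 arrays, and changed by -1.02 log2 (adjusted p = 7e-07). SQLE, the squalene epoxidase and one of the rate-controlling enzymes of the pathway, was highest at 16 h, and at 3, 16, 54, 60 and 72 h its signal was 8931, 11933, 4040.0, 8026 and 3544. Its 60 h value lay within the range of the first slide, whereas the other 4 arrays of the third slide lay below all of the first. SQLE changed by -0.76 log2 between the windows (slope -0.0177 ± 0.0034 log2 per h, adjusted p = 0.00023).

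LSS, which closes squalene epoxide into lanosterol, changed by -0.94 log2 on its brightest probe (adjusted p = 4.5e-08), while a dimmer probe for another transcript of the gene, with a mean signal of 229, had a slope of 0.00516 ± 0.0049 log2 per h (adjusted p = 0.39). The mean of both probes was not called (adjusted p = 0.0862). CYP51A1, the lanosterol demethylase, changed by -0.77 log2, NSDHL by -0.62, HSD17B7 by -0.69 and EBP by -0.69, with adjusted p from 1e-06 (EBP) to 9.7e-05 (HSD17B7). These are the enzymes that remove the extra methyl groups and shift the ring double bond. HSD17B7 and FDPS have pseudogene copies whose transcripts their probes may share, so that their values are less certain. One of the 2 further probes of HSD17B7 fell too, and the dimmest had an adjusted p of 0.050006.

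LBR, a sterol reductase that is also a receptor for lamin B of the nuclear envelope, ranged from 5373 at 72 h to 16407 at 6 h, with a median of 13273 over the 19 arrays. Its signals on the third slide were below all earlier ones, and it changed by -1.16 log2 (slope -0.0202 ± 0.0015 log2 per h, adjusted p = 3.9e-09). TM7SF2, the other sterol reductase of this step, was lower in the middle of the course than at its ends (at 3, 28 and 66 h its signal was 1216, 788 and 1229), with no called slope (adjusted p = 0.82) and a called cubic course (adjusted p = 1.4e-05). DHCR7, the final reductase, ranged from 8196 at 54 h to 18560.0 at 4 h, with a median of 13418 over the 19 arrays, and changed by -0.85 log2 (adjusted p = 1.1e-06).

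Besides TM7SF2, the enzymes of this segment without a fall over 72 h were MSMO1 and SC5D. MSMO1, the methyl sterol oxidase, was between 231 and 581 on the 16 arrays to 54 h, and at 60, 66 and 72 h its signal was 1846, 891 and 370.0. The 60 h value was the highest of the 19, and at 72 h the signal was back within the earlier range. Its change between the windows was 0.73 log2, carried by 60 and 66 h, and the slope was not called (0.00326 ± 0.0067 log2 per h, adjusted p = 0.706). SC5D, the sterol desaturase before DHCR7, ranged from 94.9 at 8 h to 364 at 60 h, with a median of 124 over the 19 arrays. Its last 3 arrays, at 364, 304 and 316, lay above all of the others, and it rose by 1.42 log2 (slope 0.0217 ± 0.0034 log2 per h, adjusted p = 3.5e-05). The rise of SC5D was not called with the slide as a block (adjusted p = 0.104). After normexp correction with quantile normalization its slope was 0.0134 log2 per h.

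**Figure D2:**
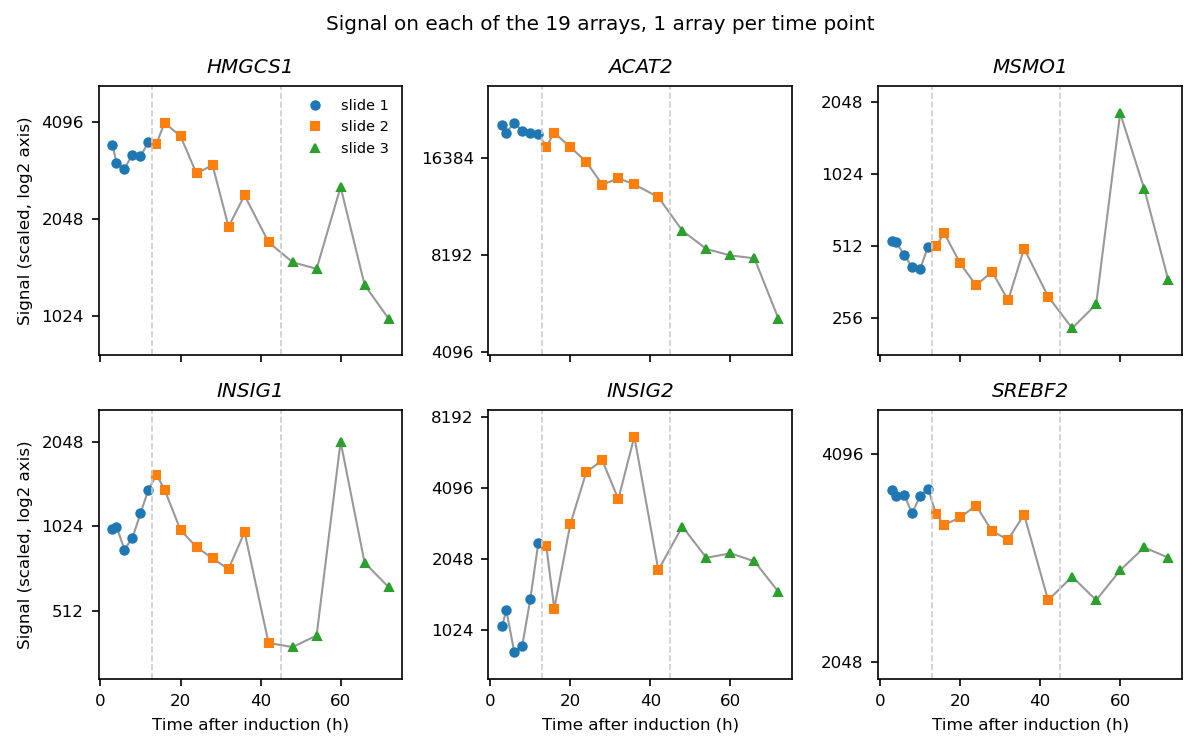
Scaled signal (log2 axis, range set per gene) against time for 6 of the genes, with 1 point per array and the shape of the point giving the slide. ACAT2 ran downward across the last 2 slides, HMGCS1, MSMO1 and INSIG1 had a high 60 h point between lower neighbours, INSIG2 was highest at 36 h, and SREBF2 moved over a narrow range.

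Of the side-branch enzymes, ACAT2 had the largest fall of the 28 members. ACAT2, the cytosolic thiolase that supplies acetoacetyl-CoA to the pathway, ranged from 5207 at 72 h to 21076 at 6 h, with a median of 15946 over the 19 arrays, starting from 20776 at 3 h. It had a mean of 20487 at 3, 4 and 6 h against 6986 at 60, 66 and 72 h, a change of -1.55 log2 (slope -0.026 ± 0.0015 log2 per h, adjusted p = 3.5e-10). The 5 arrays of the third slide were all lower than the other 14. AACS, which activates acetoacetate for sterol and fatty acid synthesis, changed by -0.68 log2 (adjusted p = 1.3e-05), although its second, dimmer probe had an adjusted p of 0.534. GGPS1, which makes geranylgeranyl diphosphate for protein prenylation, rose, from 83.1 at 6 h to 203 at 54 h, with a median of 146 over the 19 arrays (0.86 log2, adjusted p = 6.4e-05). Its rise had an adjusted p of 0.272 when the arrays were scaled to spike-in RNA.

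Among the 5 regulators, the genes of both SREBPs fell over the 19 arrays, but with the slide as a block neither was called (adjusted p = 0.172 for SREBF1 and 0.565 for SREBF2). SREBF1 ranged from 7196 at 66 h to 18594 at 12 h, with a median of 14976 over the 19 arrays. Its lowest values were those of 66 h (7196) and 72 h (8798), all others being 11424 or above, and it changed by -0.82 log2 (adjusted p = 4.3e-05). Its dimmer probe rose (0.56 log2, slope 0.0066 ± 0.0017 log2 per h, adjusted p = 0.00296), so the direction of SREBF1 depended on the probe. SREBF2 ranged from 2516 at 42 h to 3649.8 at 12 h, with a median of 3314 over the 19 arrays, and changed by -0.31 log2 (slope -0.00625 ± 0.0014 log2 per h, adjusted p = 0.00079, and 0.0606 after normexp correction with quantile normalization). SCAP, the escort protein of the SREBPs, was between 4409 and 6172, with no called slope (adjusted p = 0.842).

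INSIG1, itself a gene that SREBP activates, had an uneven course: at 3, 14, 32, 36 and 48 h its signal was 1005, 1562, 720.3, 976 and 380.5, and at 54, 60, 66 and 72 h its signal was 418, 2045, 759 and 622. It was thus lowest at 48 h and highest of all at 60 h, with a lesser maximum at 14 h. The slope over 72 h was -0.0122 ± 0.0061 log2 per h (adjusted p = 0.103). Without the 60 h array it was called falling, at -0.0188 log2 per h. INSIG2, whose product does the same work in holding SCAP back, ran otherwise, from 826 at 6 h to 6736 at 36 h, with a median of 2071 over the 19 arrays. In that order, at 12, 16, 28, 42 and 72 h its signal was 2391, 1263, 5349, 1838 and 1487, a course up and down again with jumps between neighbouring arrays. The course of INSIG2 was called by the cubic fit (adjusted p = 0.00047) and not by the slope (adjusted p = 0.255), and its second probe behaved alike (cubic adjusted p = 0.0179, slope adjusted p = 0.571). Both probes were read on the same arrays. The cubic call of the brightest INSIG2 probe was lost with the slide as a block (adjusted p = 0.139).

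Of the sterol transport genes, STARD4, a cytosolic sterol carrier, had its lowest signal (335) at 54 h and its highest (842) on the following array, with no called slope (adjusted p = 0.838). NPC1, which exports cholesterol from lysosomes, stayed between 1212 and 1650.4 and rose by 0.16 log2 (adjusted p = 0.03), a rise whose slope turned to -0.0012 and -0.0039 log2 per h with scaling to the array median and to spike-in RNA. The call of NPC1 was also lost without the 8, 10, 60 or 72 h array, where the slope was 0.0031 to 0.00322. None of the 17 falls turned with these scalings. With the array median and the spike-in RNA the median of all probes tested moved by -0.34 and -0.58 log2 and 19 and 20 members fell. The share of all probes falling under these scalings is not given, so these counts cannot be set against it. These scalings move all probes of an array alike and so leave the gap between the members' median and that of all probes, 0.72, as it was. That gap was 0.35 after normexp correction with quantile normalization and 0.51 with the mean of a gene's detected probes. It is a gap to all probes tested, not to genes well above background on every array, for which no median was taken.

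The 60 h array stood apart for a group of the members, a pattern chosen after the values were seen and given without a test. On that array 17 of the 28 members were above both neighbours of the same slide, 54 and 66 h, where 27.4% of the 13969 genes well above background on all arrays were. At least 1.5 times the geometric mean of the neighbours was reached by 7 of the 28, where 1.67% of those genes reached it. These were INSIG1 (3.63-fold), MSMO1 (3.62), SQLE (1.94), HMGCS1 (1.9), STARD4 (1.65), IDI1 (1.58) and SC5D (1.52). The steepest decliner, ACAT2, was not among them (0.987-fold), nor were FDPS (0.979) and SREBF2 (1.01), and GGPS1 was at 0.851. The count was 6 to 10 under the other scalings and the other probe rule, settings for which the share of all genes is not given. Scaling to the array median or to spike-in RNA moves the 60 h ratio of all genes alike. The summed stem cell marker signal was 350389, 380690 and 383505 at 54, 60 and 66 h, that of the fibroblast markers 12787, 13608 and 12967, that of the mesoderm and endoderm markers 1138, 980 and 2315, and 64.7%, 61.7% and 61.2% of spots were well above background. As above, each marker sum follows mainly its brightest genes. The part of these marker sums and shares of spots in the pattern was not tested, and with 1 array at 60 h neither was a repeat of it.

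**Figure D3:**
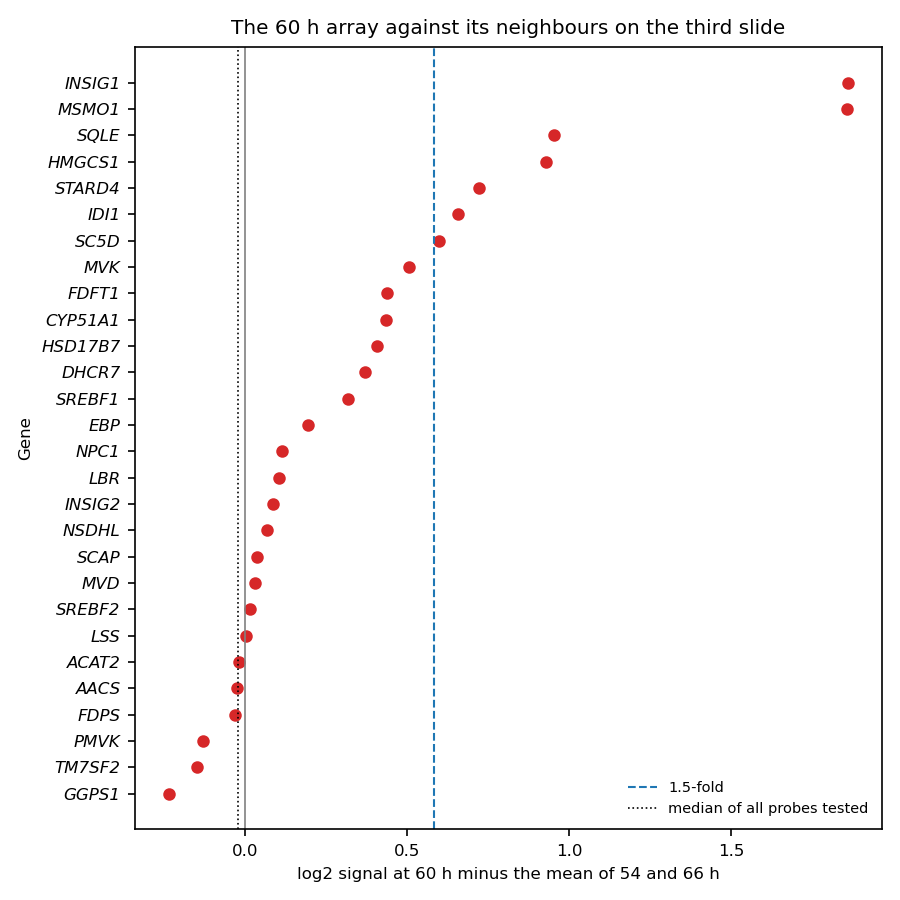
Log2 signal at 60 h minus the mean of 54 and 66 h, all on the third slide, for each of the 28 genes; the dashed line marks 1.5-fold and the dotted line the median of all probes tested. INSIG1 and MSMO1 stand farthest to the right, at 3.63 and 3.62-fold, and GGPS1, TM7SF2 and PMVK lie lowest.

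Some members had a smaller maximum at 16 h. There 15 of the 28 members were above both neighbours of the second slide, 14 and 20 h, where 36.6% of the genes well above background on all arrays were. MVK was at 6514, 7955 and 5558 on these 3 arrays, IDI1 at 3713, 4905 and 3391, and SQLE at 10728, 11933 and 9214. The ratio to the mean of the neighbours was 1.38 for IDI1 and 1.32 for MVK, with a median of 1.07 over the members and 1.01 over all probes tested. Of the spots, 49.6%, 52.0% and 56.0% were well above background at 14, 16 and 20 h, whose part in this was not tested. INSIG1 was not above both neighbours, at 1562, 1383 and 992.

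The enzymes shared much of their course. Each of 17 enzymes (those from HMGCS1 to DHCR7 without LBR) was set against the mean of the z-scored signals of the other 16 over the 19 arrays, which share the slides and the scaling. Pearson's r had a median of 0.864 and ranged from -0.539 (SC5D) to 0.971 (DHCR7), and TM7SF2 was at 0.0661. Among 13969 genes set against the mean of the 17 enzymes, the gene ranked 423 still had an r of 0.851. Values near the enzymes' median were therefore not particular to the enzymes. Once a straight line in hours was removed from both sides, the members without a fall over 72 h differed among themselves: MSMO1 was at 0.856, INSIG1 at 0.839, STARD4 at 0.737, MVD at 0.674 and SC5D at 0.661, but NPC1 at 0.431, SCAP at 0.308, TM7SF2 at 0.245 and PMVK at 0.22. The enzymes' mean z was -1.05, 0.026 and -0.493 at 54, 60 and 66 h. MSMO1, INSIG1, STARD4 and SC5D were also among the genes with a 60 h ratio of at least 1.5, so their values here are not separate from that array. Its part in them was not tested. Of the members that fell, DHCR7 was at 0.929, ACAT2 at 0.0427, AACS at -0.102 and SREBF1 at -0.379. The value of SREBF1 was the lowest of all members, against 0.59 before the line was removed. GGPS1 and INSIG2 ran against the enzymes before and after, at -0.792 and -0.325 and at -0.438 and -0.357.

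Outside the 28 genes, those whose course was most like the enzymes' mean among 13969 genes included the ubiquitin-conjugating enzyme gene UBE2T (r = 0.958), the mitochondrial protein gene CMC2 (0.958), the kinetochore motor gene CENPE (0.944), the deubiquitinase gene OTUD6B (0.937), the cullin ligase subunit gene RBX1 (0.933), the antisense RNA gene NUTM2A-AS1 (0.931), the ATP synthase subunit gene ATP5MJ (0.927), the cytochrome oxidase assembly gene COA6 (0.925) and HMSD (0.925). Each r was taken over the 19 arrays and describes a likeness in course.

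With the slide as a block, which leaves the differences within slides alone, 10 of the 28 members fell (4.01% of all probes) and none rose (4.88% of all probes by limma; without the block, 3 did). The 10 were HMGCS1, IDI1, FDPS, LSS, LBR, HSD17B7, EBP, DHCR7, ACAT2 and AACS. MVK, FDFT1, SQLE, CYP51A1, NSDHL, SREBF1, SREBF2, SC5D, GGPS1 and NPC1 lost their call, with adjusted p from 0.0616 (CYP51A1) to 0.737 (NPC1). The cubic course was called for 13 members with the block, where 31.7% of all probes were called.

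**Figure D4:**
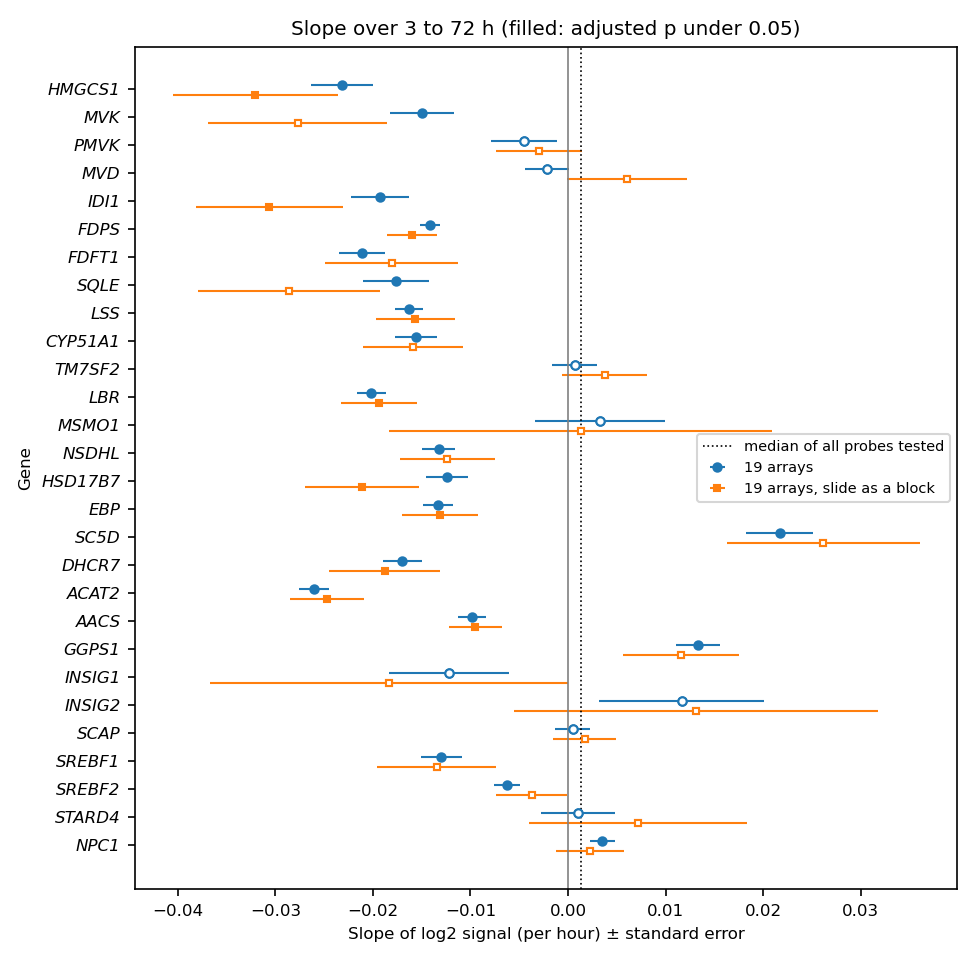
Slope of log2 signal per hour with its standard error for each of the 28 genes, over 19 arrays (circles) and with the slide as a block (squares); filled points have an adjusted p under 0.05 and the dotted line is the median of all probes tested. The slopes of the falling enzymes stayed negative with the block while their errors widened, and none of the 3 risers kept a filled point.

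Within the first slide 1 member fell, TM7SF2 (2.38% of all probes fell), and none rose (2.39%), and that call was lost without any 1 of the 6 arrays. Within the second slide 13 fell (2.2%) and none rose (4.42%), and 22 of the 28 slopes were negative. This count was 0 without the 14 h array, 1 without 16 h, 3 without 20 h, 6 without 32 h and 2 without 36 h, and 0 with spike-in scaling, and it was 9 to 11 without each of the others. Within the third slide none fell (0.959%) and none rose (0.389%), and 14 of the 28 slopes were negative. With spike-in scaling 21 of the 28 fell on the third slide, where 65.5% of all probes fell. At an unadjusted limma p under 0.05, 4 members fell (11.2% of all probes) and 2 rose (13.7%) on the first slide, 15 fell (10.2%) and 0 rose (17%) on the second, and 5 fell (14.9%) and 2 rose (12%) on the third. With the slide as a block the same threshold gave 16 falling (11.1%) and 1 rising (14.6%).

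The other genes of sterol handling moved in both directions. Of a list of 35 genes all had a probe and 34 were tested (CYP46A1, an oxysterol enzyme, was not), of which 14 fell, 8 rose and 12 were not called. Of all probes tested 24.7% fell and 27.4% rose, and of the genes well above background on all arrays 36.5% and 19.6%, so that the list's counts lay near the shares of the latter. Among the largest falls were SOAT1, which esterifies cholesterol (-1.17 log2), PDSS1 and COQ2 of the ubiquinone branch (-1.10 and -0.77) and LPCAT3, a phospholipid-remodelling target of LXR (-0.85, from 18 arrays, since its 14 h spot was left out). The largest rises were those of CYP27A1, a sterol hydroxylase (1.08), NFYA, a subunit of NF-Y (0.84), ABCG1, a sterol exporter (0.75), and MYLIP, a ligase that removes lipoprotein receptors (0.66). CYP27A1 kept its call with scaling to the array median and to spike-in RNA, and NFYA, ABCG1 and MYLIP lost theirs with both. NFYA was highest at 60 h, at 809 against 404 at 54 h and 540 at 66 h. By role, 2 of the 3 genes of sterol esters and storage fell, as did 3 of the 4 promoter partners of SREBP, while 3 of the 5 genes of LXR and its targets rose. In the isoprenoid branch 2 of 9 fell and 1 rose. The median change of the list was -0.19 log2, against -0.65 for the 28 cholesterol genes and 0.07 for all probes tested, many of them not well above background on every array. With the slide as a block 3 of the list fell and 2 rose, and 2 and 1 rose with scaling to the array median and to spike-in RNA.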

How the data were processed

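KhES-3 cells were profiled on 19 one-colour Agilent arrays, 1 per time point. The authors deposited the Agilent Feature Extraction 10.10.1.1 output of each array, whose processed intensity per spot has the background subtracted and is not scaled between arrays, with flags of 0 or 1 (other columns, as deposited) for spots well above background, saturated or outlying. A table of intensities was deposited by the authors too, each column being the processed intensity times 1 factor (0.905 to 1.38), left blank where a spot was not well above background. These factors lay within 1.2% of the 75th percentile at 8 h over that of each array. The array headers name hg19 as the build of the design, and no gene coordinates were taken from it.

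Flagged spots (0.632%) were left out, the spots of each of 50683 probes averaged, and log2 intensity taken minus the 75th percentile of the array, without a pseudocount. Gene symbols came from RefSeq accessions (28174 probes matched to 20503 symbols, GRCh38.p14), and the brightest probe stood for a gene. limma 3.58.1 (R 4.3.3; lmFit, eBayes) gave slopes and cubic courses, with Benjamini-Hochberg adjustment over the 32113 probes that 5 or more arrays had well above background, over 19 arrays, with the slide as a block, and within slides. Without replicates, p-values measure the scatter of arrays around the line. The fits were tested on simulated data with independent scatter per array and no shift between slides. That simulation therefore cannot cover the overlap of slide and time. Figures were drawn with matplotlib 3.10.9, and tables made with pandas 2.3.3 and numpy 2.4.6 under Python 3.11.15. All 28 genes are named, with up to 4 called genes in each direction of the wider list by size of change, and the 10 genes most like the enzymes, of which 1 is not reported here. The members and lists were chosen with earlier results of these data known. The alternatives were other scalings (array median, spike-in RNA, normexp with offset 50 on median pixel intensity followed by quantile normalization), the deposited table, no filter or a filter on all 19 arrays, the mean of detected probes, log2 hours, Spearman correlation, the arrays to 54 h, 72 h minus 3 h, and each array left out. The ratios at 60 and 16 h and the fit without 66 and 72 h were added after the data were seen. Blots, quantitative PCR and later time points were not analysed here.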

Additional observations from a re-analysis of the deposited data

How the results depend on the processing

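The number of falling members stayed at 16 to 20 under the other scalings, filters, probe rule and time axes, was 17 to 18 with each array left out, 19 without the 66 and 72 h arrays and 22 to 54 h, and was 10 with the slide as a block. The number rising was 0 with the block, 1 with spike-in scaling and 2 to 3 with each array left out. The cubic count was 13 with the block. The members' median change was -0.99 with the array median, -1.23 with spike-in RNA, -0.33 with normexp and quantile normalization and -0.42 with the mean of detected probes. On the first slide, 0 members fell with array median scaling, spike-in scaling or the mean of detected probes, 2 with normexp, and 0 to 0 with an array left out. On the second slide, 0 fell with spike-in scaling and 0 to 11 with an array left out, and 0 to 1 rose. On the third, 21 fell with spike-in scaling and 1 rose with normexp. Of the wider list, 3 fell with the block, and 2 rose with array median scaling, 1 with spike-in scaling, 5 on log2 hours, 2 with the block and 4 by Spearman correlation. The cause of these differences was not tested. For the other scalings a share of all probes is given only for the third slide with spike-in scaling.

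The sign turned for members without a call, and for NPC1. MVD was at 0.00601 log2 per h with the block. With array median scaling TM7SF2 was at -0.00405, MSMO1 at -0.00148, SCAP at -0.00425, STARD4 at -0.0037 and NPC1 at -0.00122. With spike-in scaling they were at -0.00676, -0.00419, -0.00697, -0.00642 and -0.00393. On log2 hours TM7SF2, MSMO1, SCAP and STARD4 were at -0.0425, -0.00432, -0.0284 and -0.0237 log2 per doubling, to 54 h at -0.00603, -0.0185, -0.00347 and -0.0117 log2 per h, and by Spearman correlation at -0.0842, -0.281, -0.139 and -0.00351. With each array left out they ranged from -0.00122 to 0.00202, -0.00465 to 0.00626, -0.000466 to 0.0013 and -0.00187 to 0.00313. Of the 20 called members, NPC1 was the only one to lose its call with an array left out. No paired analysis was possible because there was only 1 array per time point. Dim signals are the least certain, and precision is limited by how few arrays there are.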
